A study of Mus musculus with 2 samples.

Results

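The circadian output and D-box factors described here are 8 of the 55536 genes in the deposited gene tables, chosen by name. They are Dbp, Tef, Hlf, Nfil3, Bhlhe40, Bhlhe41, Ciart and Rora, and each symbol matched 1 Ensembl gene. Total RNA, with ribosomal RNA reduced, was sequenced from the gastrocnemius, the large calf muscle, of 2 adult female B6CASTF1/J mice aged 8 to 10 months. This strain is the F1 cross of B6 with CAST, the labels list no treatment or engineered allele, and the animals form 1 group. The labels number them animal 1 (replicate 1) and animal 3 (replicate 2), and each library was made from 300 ng of RNA with synthetic spike-in RNAs. The tissue samples are separate by the labels but share 1 donor identifier. The sources used here do not give the time of day at collection.

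The circadian clock is a feedback loop in which CLOCK and BMAL1 (the product of Arntl) switch on genes through a DNA element called the E-box, among them the Per and Cry genes that shut the pair off again. Output factors carry that rhythm further. DBP, TEF and HLF are bZIP activators of the PAR family that bind the D-box element, and NFIL3 is a bZIP repressor that binds the same element. BHLHE40 and BHLHE41 are paralogous repressors that bind E-boxes, CIART (also called CHRONO) is a repressor of the CLOCK and BMAL1 pair, and RORA is a nuclear receptor that activates Arntl, Nfil3 and other genes through ROR elements. Skeletal muscle holds its own clock, which is known for its ties to fuel use.

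Since the 2 animals form a single group there is no p-value to give, and differences between them are described by size alone. Replicate 1 held 42605802 gene counts and replicate 2 held 43301418. Over the 11125 genes whose expected count averaged 50 or more, the libraries differed by more than sampling noise, with a chi-square per degree of freedom of 29.2, and edgeR gave a common biological coefficient of variation of 0.124. The 6 muscle fibre markers summed to 91882 TPM in replicate 1 and 81187 TPM in replicate 2, and their median log2 ratio was -0.01. TPM, the deposited measure of level, is corrected for transcript length and library depth. Of it, 27.0% in the first library and 33.6% in the second went to the small RNA genes Rn7s1 and Rn7s2. Coding genes, mitochondrial ones included, held 52.8% and 47.5%. This lowers TPM in replicate 2 relative to replicate 1, so differences between the animals are read from the scaled counts. Of the other cell types, the 6 Schwann cell and nerve markers summed to 55.3 and 12.2 TPM. All 5 with enough counts were past 1.5-fold higher in replicate 1, beside 3.50% of the 11125 genes. Fibroblast markers summed to 259 and 201 TPM and endothelial markers to 53.5 and 44.6 TPM, while 5 macrophage markers summed to 4.15 and 4.04 TPM. Albumin, apolipoprotein A1 and 2 neuronal markers together summed to 0.25 and 0.32 TPM. The part of these cell types in the values below was not tested, and in bulk tissue fewer cells of a type and less RNA per cell cannot be told apart.

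Stretches before the RefSeq starts are shown because they hold letters of the elements named above. RefSeq (GRCm38.p6, the assembly also called mm10) gave promoter windows of 250 bases before to 50 bases after the start for 7 of the 8 genes, all but Bhlhe40, in 8 windows, Tef having 2. Exact matches were sought on both strands to the E-box CACGTG, to the D-box forms TTATGTAA, TTATGCAA and TTACGTAA, and to the ROR element forms TAGGTCA and TGGGTCA. The Ciart window held 3 E-boxes, whose first bases lay 116, 58 and 44 bases before the start. Both Tef windows and the Bhlhe41 window held 1 E-box each, and the Nfil3 window held 1 ROR element on the opposite strand, 12 bases before the start. In the lines here capitals mark those matches, each line reads 5′ to 3′ on the strand of the gene, and every line lies before the RefSeq start. By GENCODE starts only the Ciart line lies wholly before every model of its gene. The upstream Tef line lies past the start of Tef-202 at 81802421, the downstream Tef line past that of Tef-206 at 81811046 and the Nfil3 line past that of Nfil3-201 at 52981073. The last 3 bases of the Bhlhe41 line are the first of Bhlhe41-201, which starts at 145865558.
Ciart, chr3:95882252-95882378, minus strand: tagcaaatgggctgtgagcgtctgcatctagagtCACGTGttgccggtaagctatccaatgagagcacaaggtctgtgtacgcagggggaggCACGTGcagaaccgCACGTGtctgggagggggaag
Tef, upstream start, chr15:81802534-81802563, plus strand: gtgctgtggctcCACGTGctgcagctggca
Tef, downstream start, chr15:81811264-81811293, plus strand: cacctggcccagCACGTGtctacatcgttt
Bhlhe41, chr6:145865556-145865585, minus strand: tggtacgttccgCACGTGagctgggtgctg
Nfil3, chr13:52981040-52981069, minus strand: tagcgcggcgctcggaacTGACCTActaac

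Of all 32851 windows in the RefSeq table, 7.15% held the E-box, 1.78% any of the 3 D-box forms and 6.45% either ROR form. Among the windows of the members 4 of 8 held an E-box, none held a D-box form and 1 held a ROR element. The windows of Dbp, Hlf and Rora held none of these letters, which says nothing of elements elsewhere in those genes. A match is a description of the sequence and not a measured binding site.

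Each of the 8 genes reached 1 TPM in both animals, and together they made up 267 TPM in replicate 1 and 300 TPM in replicate 2. Tef was highest and Hlf lowest in mean level. The order of mean TPM was Tef, Dbp, Bhlhe40, Rora, Bhlhe41, Nfil3, Ciart and Hlf. By the gene table, steps in that order exceeded the range of the 2 animals between Tef and Dbp, between Rora and Bhlhe41, and between Nfil3 and Ciart. The last of these steps depends on the quantification. By the second quantification Nfil3 (16.9 and 7.95 TPM) and Ciart (8.52 and 5.46 TPM) had overlapping ranges. Within each library Nfil3 was still above Ciart by both quantifications. The neighbours Dbp and Bhlhe40, Bhlhe40 and Rora, Bhlhe41 and Nfil3, and Ciart and Hlf had overlapping ranges. Within each library, however, Dbp was above Bhlhe40 by both quantifications. The order of the other pairs turned between the animals by the gene table, so it is not settled by these libraries. Of the 22028 protein-coding genes in the tables Tef ranked 548th by mean TPM, Dbp 901st, Bhlhe40 1178th and Rora 1301st. Bhlhe41 and Nfil3 ranked 3201st and 3277th, and Ciart and Hlf 6333rd and 6606th. Rescaling over nuclear protein-coding genes leaves out the abundant small RNAs, the mitochondrial genes and all other noncoding genes. It raised every level, from 97.4 to 213 TPM for Tef and from 4.50 to 9.80 TPM for Hlf.

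**Figure D1:**
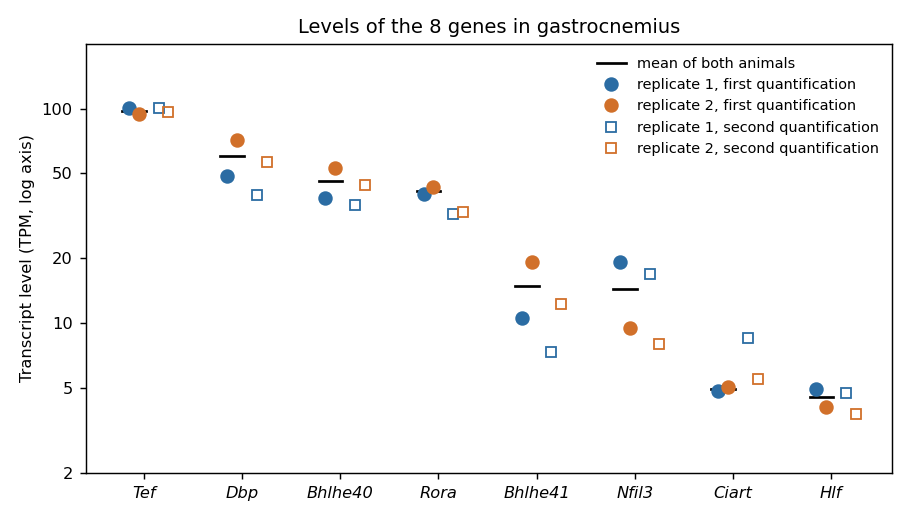
Level of each gene in TPM on a log axis, by replicate (blue, replicate 1; orange, replicate 2), with filled circles for the gene table, open squares for the second quantification and black bars for the mean of the circles. Tef lies near 100 TPM in both replicates, while Dbp, Bhlhe40 and Bhlhe41 lie higher in replicate 2 and Nfil3 lies higher in replicate 1.

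The 3 D-box activators were present at very unequal levels. Tef (ENSMUSG00000022389.15, chromosome 15, 81802421 to 81826863, plus strand) stood at 100.3 TPM in replicate 1 and 94.6 TPM in replicate 2, from 8517 and 8654 counts. Its mean was 97.4 ± 4.05 TPM (SD, n = 2), the steadiest of the 3 between the animals by count ratio. Dbp (ENSMUSG00000059824.12, chromosome 7, 45705088 to 45710203, plus strand) stood at 48.3 and 71.5 TPM, from 1974 and 3303 counts, a mean of 59.9 ± 16.4 TPM (SD, n = 2). Replicate 2 was thus the higher animal for Dbp. Hlf (ENSMUSG00000003949.16, chromosome 11, 90336536 to 90390895, minus strand) stood at only 4.91 and 4.08 TPM, from 710 and 668 counts, a mean of 4.50 ± 0.587 TPM (SD, n = 2). Of the summed TPM of the 3 activators, Tef held 65.3% in replicate 1 and 55.6% in replicate 2, Dbp 31.5% and 42.0%, and Hlf 3.20% and 2.40%.

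Nfil3, the repressor that competes with them for the D-box, went the other way from Dbp. Nfil3 (ENSMUSG00000056749.7, chromosome 13, 52967209 to 52981073, minus strand) stood at 19.3 TPM in replicate 1 and 9.43 TPM in replicate 2, from 1042 and 584 counts. Its mean of 14.4 ± 6.97 TPM (SD, n = 2) therefore carries a large spread. Summed Dbp, Tef and Hlf TPM came to 7.96 times Nfil3 TPM in replicate 1 and 18.0 times in replicate 2, a mean of 13.0 ± 7.13 (SD, n = 2). Such a ratio within a library does not depend on how the libraries are scaled. The second quantification gave 8.57 and 19.7 for the same ratio, so it was 2.27-fold and 2.29-fold higher in replicate 2 by the respective tables.

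Among the E-box repressors Bhlhe40 exceeded Bhlhe41 in both animals, and both were higher in replicate 2. Bhlhe40 (ENSMUSG00000030103.11, chromosome 6, 108660629 to 108666925, plus strand) stood at 38.4 and 53.0 TPM, from 3135 and 4659 counts, a mean of 45.7 ± 10.3 TPM (SD, n = 2). Bhlhe41 (ENSMUSG00000030256.11, chromosome 6, 145858243 to 145865558, minus strand) stood at 10.5 and 19.2 TPM, from 1158 and 2213 counts, a mean of 14.8 ± 6.12 TPM (SD, n = 2). Bhlhe40 TPM was 3.65 times Bhlhe41 TPM in replicate 1 and 2.76 times in replicate 2. By the second quantification these ratios were 4.86 and 3.57, since that table placed Bhlhe41 at 7.29 and 12.3 TPM, the latter more than 1.5 times below the value of the gene table.

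Ciart, the CLOCK and BMAL1 repressor whose promoter holds the 3 E-boxes printed above, was near the bottom of the set. Ciart (ENSMUSG00000038550.10, chromosome 3, 95878503 to 95882251, minus strand) stood at 4.82 and 5.03 TPM, a mean of 4.93 ± 0.148 TPM (SD, n = 2). It rested on the fewest reads of the 8, 147 and 198 counts. The second quantification placed Ciart at 8.52 TPM in replicate 1 and 5.46 TPM in replicate 2, so the closeness of the first pair of values depends on the quantification. Rora (ENSMUSG00000032238.17, chromosome 9, 68653786 to 69388246, plus strand), the ROR element activator, stood at 40.1 and 42.9 TPM, from 8026 and 9168 counts, a mean of 41.5 ± 1.99 TPM (SD, n = 2). Its values in the 2 animals were close, and the second quantification set them at 32.2 and 33.0 TPM.

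Reads of these genes were hardly shared with other genes. The posterior SD of the count was 0 in both libraries for every member but Ciart, for which it was 0.49 and 0.24 counts. On the opposite strand 737 bases of Dbp overlap Sphk2, a sphingosine kinase gene with 459 and 407 counts. The library kit keeps strand by the labels, but the sources used here do not say whether counting used it, so reads of that overlap may not be told apart. The antisense or unclassified genes that overlap Tef, Bhlhe40, Bhlhe41, Ciart and Rora had at most 9 counts in either library.

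Between the animals 3 of the 8 genes differed by more than 1.5-fold, Dbp and Bhlhe41 higher in replicate 2 and Nfil3 higher in replicate 1. These ratios came from counts scaled by TMM, edgeR's trimmed mean method, and are on the log2 scale with a prior count of 2. Of all 11125 genes 5.51% were past 1.5-fold in either direction, 2.01% higher in replicate 2 and 3.50% higher in replicate 1. Past 2-fold lay none of the 8, against 1.38% of all genes, 0.683% higher in replicate 2 and 0.701% higher in replicate 1. Of the 8 ratios 6 were above 0, beside 5667 of all 11125 genes, and their median was 0.29, beside 0.00 over all genes. With spike-in scaling, with scaling to totals only and by the second quantification 5 of 8 were above 0. Spike-in scaling moved the median of the 8 to 0.16 and that of all genes to -0.12. The members were chosen with earlier results of these data known, so these counts are a description.

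Bhlhe41 had the largest ratio of the set, 0.92 on the log2 scale or 1.89-fold higher in replicate 2, with a 95% interval of 0.82 to 1.02 for counting error only. Of all tested genes 1.75% had a ratio at least as large in size. Nfil3 had the largest ratio in the other direction, -0.85 with a counting interval of -1.0 to -0.70, which is 1.80-fold higher in replicate 1. Dbp followed with 0.73 and an interval of 0.65 to 0.81, 1.65-fold higher in replicate 2, and 3.24% of tested genes had a ratio at least as large in size as its own. Bhlhe40 lay just short of the 1.5-fold line at 0.56 or 1.47-fold. With spike-in scaling the ratios of Bhlhe41, Dbp and Nfil3 were 0.79, 0.60 and -0.98, all still past 1.5-fold. They were past it under all 7 alternatives tried, of which the other count minimums could not change these ratios.

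The other 4 genes lay closer to equality. Ciart had a ratio of 0.41 with a counting interval of 0.10 to 0.73, the widest of the 8. Rora had 0.18 with an interval of 0.13 to 0.22, and 0.05 with spike-in scaling. Tef had 0.01 with an interval of -0.04 to 0.05, and its sign turned with spike-in scaling (-0.12), with scaling to totals only and by the second quantification. Hlf had -0.10 with an interval of -0.26 to 0.05, and -0.23 with spike-in scaling. The differences in Tef and Hlf were thus within counting error under TMM, which does not show that the animals were alike.

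**Figure D2:**
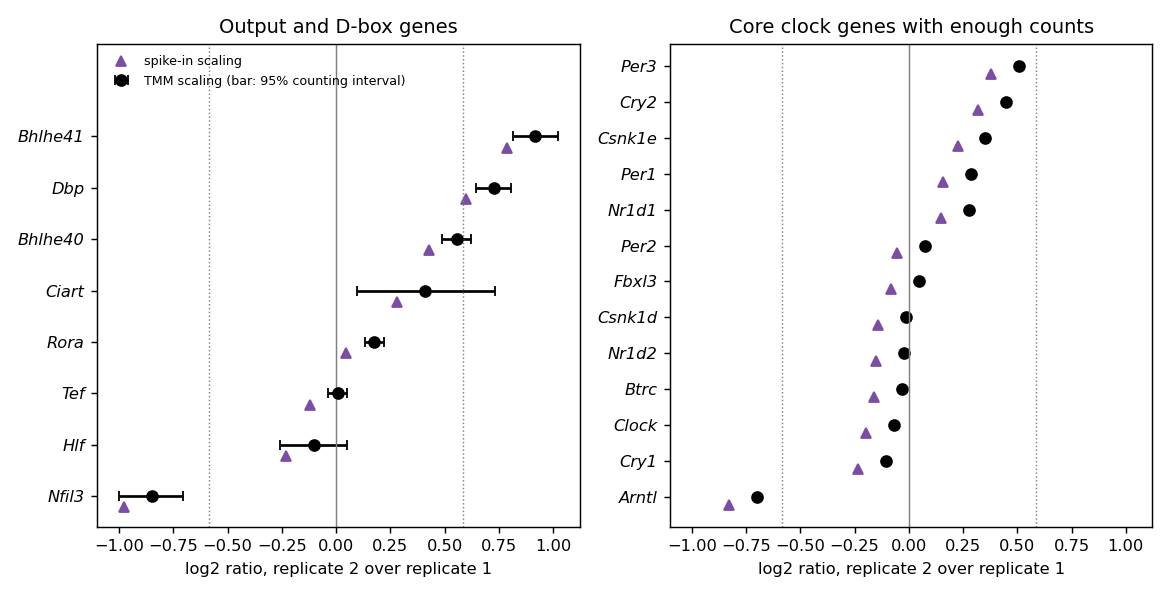
Log2 ratio of replicate 2 over replicate 1 for the 8 genes (left, with 95% intervals that cover counting error only) and for 13 of the core clock genes with enough counts (right), with circles for TMM and triangles for spike-in scaling. Dotted lines mark 1.5-fold. Bhlhe41 and Dbp lie right of the line and Nfil3 and Arntl left of it under both scalings.

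**Figure D3:**
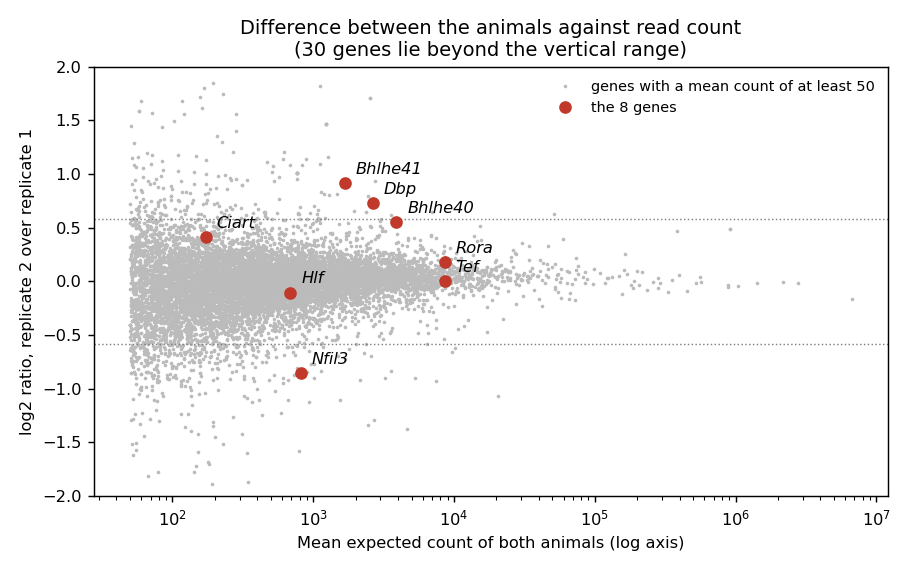
Log2 ratio of replicate 2 over replicate 1 against the mean expected count (log axis) for 11125 genes (grey) and the 8 genes (red), with dotted lines at 1.5-fold and 30 genes outside the vertical range. Tef, Rora, Hlf and Ciart sit among most genes of like count, Bhlhe41, Dbp and Bhlhe40 above them and Nfil3 below.

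Of 18 genes on the core clock list 14 were detected and had enough counts, of which 8 had ratios above 0 and 6 below, with a median of 0.04 (-0.09 with spike-in scaling) beside 0.00 (-0.12) over all genes. Past 1.5-fold lay 1 of the 14, a share near the 5.51% of all genes and so no result about the list. That gene was Arntl, with 6.25 and 3.48 TPM from 487 and 302 counts, a log2 ratio of -0.70 or 1.63-fold higher in replicate 1. Arntl, which encodes the CLOCK partner BMAL1, had its higher value in the same animal as Nfil3. Next in size were Per3 at 0.51 (638 and 917 counts) and Cry2 at 0.45 (1140 and 1571 counts). Both are members of the negative limb of the clock and were higher in replicate 2, but short of 1.5-fold. The other Per and Cry genes were divided, with Per1 at 0.28, Per2 at 0.07 (-0.06 with spike-in scaling) and Cry1 at -0.10. Among the highest levels on the list were those of Nr1d2 (40.6 ± 3.96 TPM) and Nr1d1 (37.1 ± 1.68 TPM; SD, n = 2). Nr1d1 and Nr1d2 encode the REV-ERB repressors that compete with ROR factors for their element.

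Genes known to follow the clock in muscle or other tissues were divided in direction. Of 17 such genes 16 had enough counts, 8 with ratios above 0 and 8 below, with a median of 0.02 (-0.11 with spike-in scaling). Over all genes the median was 0.00 (-0.12 with spike-in scaling). Of the 16, 3 were past 1.5-fold, all higher in replicate 1, beside 3.50% of all genes past it in that direction and 5.51% in either. Ucp3, a mitochondrial carrier linked to fatty acid use, had 104.8 and 36.7 TPM and a log2 ratio of -1.38. Pdk4, the kinase that shuts off pyruvate oxidation, had 402.9 and 174 TPM and a ratio of -1.06, and the glucocorticoid target Tsc22d3 had 229.8 and 130.1 TPM and a ratio of -0.66. The highest levels were those of Tcap (1831 ± 60.9 TPM), a Z disc protein, Pdk4 (289 ± 162 TPM) and Slc2a4 (187 ± 9.58 TPM; SD, n = 2), the insulin-responsive glucose transporter. Nr1i3, a target of PAR bZIP factors in liver, had 0 counts in both libraries, which allows up to 3 counts or a CPM, counts scaled to library size, of 0.0704 in replicate 1 and 0.0693 in replicate 2. Among the related C/EBP family, Cebpb stood at 43.5 TPM, Cebpg at 14.3, Cebpd at 2.33 and Cebpa at 1.43 TPM in the mean, with log2 ratios of 0.08 (-0.05 with spike-in scaling), -0.00, 0.96 and -0.19. Of these only Cebpd, from 171 and 339 counts, was past 1.5-fold, higher in replicate 2. Over all genes 2.01% were past it in that direction and 5.51% in either.

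The transcript tables showed which models of each gene carried these levels. A gene's transcript models are the alternative RNAs annotated for it, and the deposited percent is each model's share of the TPM of the gene. Nfil3 has 1 model, so its level rests on no such split. For all 8 genes the leading model of the first transcript table was the same in both animals. Hlf was 91.2 ± 1.34% Hlf-201 and Bhlhe40 was 90.9 ± 3.70% Bhlhe40-201 (SD, n = 2), both long protein-coding models. By the second quantification those shares were 73.2% and 83.4%.

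Dbp divided its level over 3 coding models, and their shares differed between the animals. Dbp-201, the longest model, held 52.8% in replicate 1 and 47.7% in replicate 2. Dbp-203 held 10.4% and 31.4%, while Dbp-204 held 30.1% and 16.5%, so the order of these 2 models was reversed between the animals. The second quantification put Dbp-203 at 3.25% and 15.8% and Dbp-204 at 19.7% and 11.6%, with the same reversal at lower shares, and Dbp-201 at 67.8% and 66.4%. The 3 models start within the same stretch, at positions 45705088, 45705284 and 45705269 of chromosome 7. In counts Dbp-203 had 162 and 833, Dbp-204 had 431 and 402, and Dbp-201 had 1241 and 1907, all estimated by sharing out reads among overlapping models. Retained-intron models Dbp-202 and Dbp-205 together held 6.75% and 4.29%.

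For Tef and Rora the estimated level was divided over annotated models with distant starts. Use of the starts themselves was not measured. For Tef, models that start around the upstream first exon, led by Tef-202 (start at 81802421), held 48.6% and 50.5% of TPM. Models that start near the downstream window, Tef-206, Tef-201 and Tef-210, held 49.6% and 48.4%. The first starts of these groups lie 8625 bases apart. The E-boxes printed above lie before the RefSeq starts but after those first GENCODE starts, at 81802546 against 81802421 for Tef-202 and at 81811276 against 81811046 for Tef-206. By the second quantification the upstream group held 37.0% and 37.9% and the downstream group 59.1% and 58.0%, so which group leads is uncertain while both tables gave close shares in the 2 animals. In the first table part of the downstream level is Tef-206, a model of 477 bases with 198 and 273 counts but 18.6% and 23.8% of TPM. By the second quantification Tef-206 held 23.1% and 24.0%, and Tef-210, of 399 bases, held 7.71% and 11.9%. In expected counts the upstream group had 5020 and 5503 and the downstream group 3470 and 3129.

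For Rora the long model Rora-201 of 10878 bases held 56.2% and 51.3%, and Rora-202, of 2591 bases, held 42.8% and 43.5%. Rora-202 starts 635896 bases downstream of Rora-201 and is also a coding model; RORA isoforms are known to differ at the amino end. In counts Rora-201 took 84.9% and 83.2%. The second quantification gave Rora-202 36.2% and 39.4%, so models of both starts held a large part of the estimated level by both quantifications.

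For Bhlhe41 and Ciart the shares depended on the quantification. Bhlhe41-201, the longest model at 6133 bases, held 93.7% and 91.9% of the counts but 61.0% and 54.7% of TPM. The remainder was mostly a coding model of 744 bases (ENSMUST00000111703.1) with 65.4 and 177 counts and 34.4% and 44.5% of TPM. By the second quantification that short model held 18.1% and 26.5%. Ciart-201 held 64.9% and 82.7% of Ciart TPM in the first table and 16.5% and 46.9% in the second, where Ciart-204 led in replicate 1. With 147 and 198 counts spread over 6 coding models, the leading model of Ciart is not settled.

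**Figure D4:**
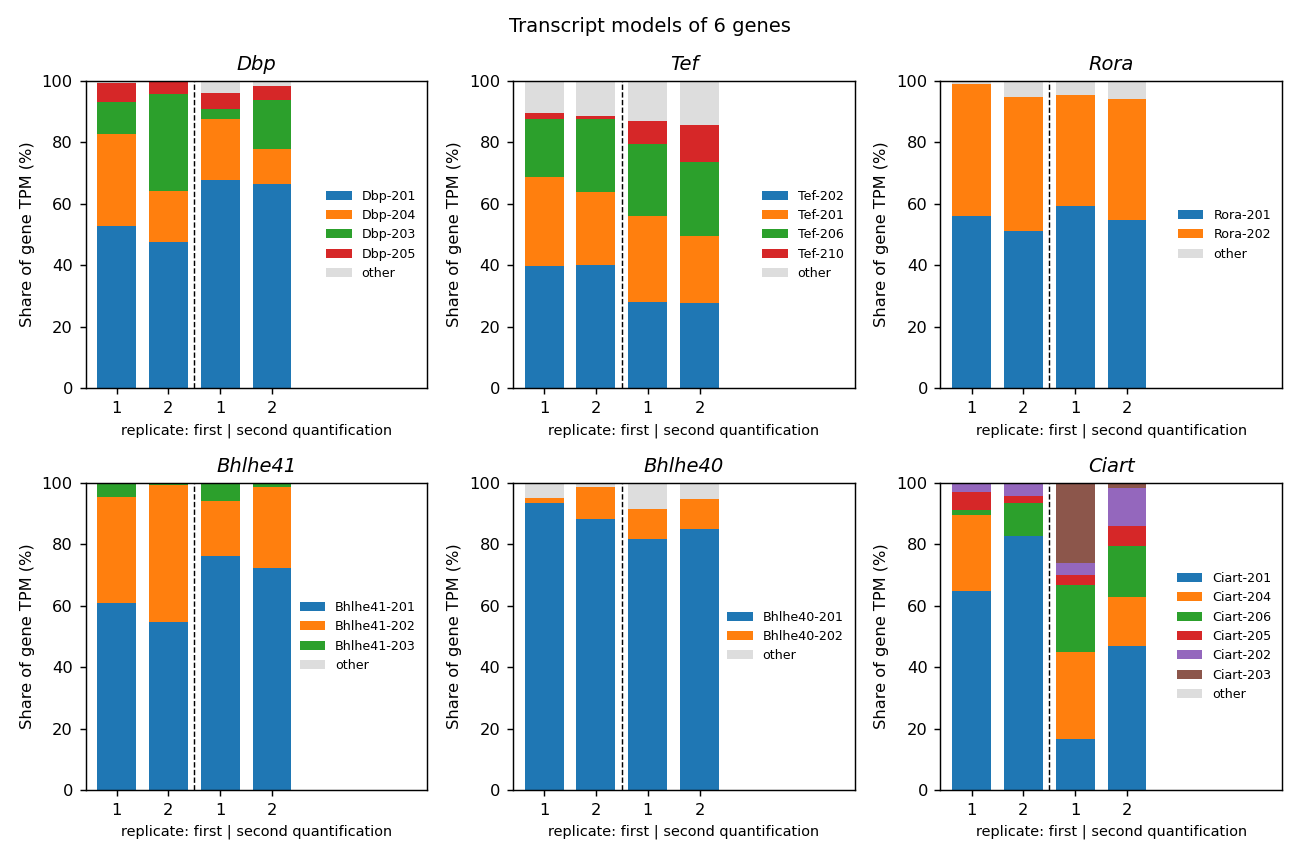
Share of TPM in percent held by the transcript models of 6 genes in replicates 1 and 2, by the first transcript table (left pair of bars) and the second quantification (right pair), with models under 5% in all 4 bars pooled as other. Dbp-203 and Dbp-204 trade places between replicates in both pairs, Rora keeps 2 large models throughout, and the Ciart bars differ most between the pairs.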

How the data were processed

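Total RNA of gastrocnemius from 2 mice was quantified by the authors, 1 library per animal. The deposited gene table and first transcript table give expected counts, estimated reads that are not normalized, and TPM, which is scaled per library over all features including spike-ins. The first transcript table also gives the deposited percent of each gene's TPM held by a transcript. A second deposited transcript table, made directly from reads, gives estimated counts and TPM, which were summed to genes. The deposited credibility bounds of TPM, listed as a signal on the TPM scale, were read but not reported. Assembly mm10 and annotation GENCODE M21 are named per the file headers and notes; for the programs: not given in the sources used here. A B6 reference was used for hybrid animals, and allele of origin was not analysed here.

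Symbols were matched to Ensembl genes through the second transcript table. Expected counts were rounded for edgeR 4.0.16 in R 4.3.3 and scaled by TMM; spike-ins and phiX, 0.255% and 0.277% of counts, stayed out, as did features with numeric identifiers. Log2 ratios used CPM with a prior count of 2, and only genes averaging 50 or more expected counts entered comparisons. Counting intervals are exact (Clopper-Pearson) binomial at 95% and, like the floor of 3 counts, leave out all but counting error; the reads carry no molecular identifiers in these tables. Replicates are separate animals by their labels. The steps were tested on simulated data. The members and lists were chosen with earlier results of these data known. All members are named; of the core clock and clock output lists the 3 largest ratios among genes with enough counts and the 3 highest levels are named, except 1 item that is not reported here, besides Nr1i3, named after its values were seen. Start groups join models that start within 1000 bases of the next. Motifs were searched in RefSeq windows with Python 3.11.15 and pandas 2.3.3. Alternatives were scaling by spike-ins, by DESeq2 1.42.0 or by totals only, other prior counts, count minimums and TPM thresholds, posterior mean values, the second quantification, rescaling and leaving out each animal.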

Additional observations from a re-analysis of the deposited data

How the results depend on the processing

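All 8 genes were detected under every alternative but the threshold of 5 TPM, which left 6. Dbp, Bhlhe41 and Nfil3 were the members past 1.5-fold in the same directions under all 7 alternatives to that count. Among these alternatives the other count minimums could not change the ratio of a member. The number of all genes past 1.5-fold was 613 of 11125 (5.51%). It was 1632 of 14144 (11.5%) with a count minimum of 10 and 6040 of 55536 (10.9%) with none. Spike-in scaling changed the split of those genes from 224 higher in replicate 2 and 389 higher in replicate 1 to 147 and 667, and it turned the median log2 ratio of the core clock list to -0.0917 and of the clock output list to -0.109, beside a median of -0.12 over all genes. The mean of Bhlhe40 over Bhlhe41 TPM was 3.21 by the gene table and 4.21 by the second quantification. Without 1 animal the summed activators over Nfil3 were 7.96 or 18.0, the value of the animal left. A ratio between the animals has no value without either of them. Posterior mean TPM raised the low genes Hlf and Ciart to 5.13 and 5.69 TPM. Counts of 147 and 198 limit Ciart, whose ratio and transcript shares are the least precise of the set. No paired analysis was possible because the 2 libraries form a single group.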
